A study of Homo sapiens with 9 samples.

Results

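The HOX genes lie in 4 clusters, HOXA on chromosome 7, HOXB on chromosome 17, HOXC on chromosome 12 and HOXD on chromosome 2, with 39 genes in all. The windows described here were chosen by position on hg19, the build named in the submitters' processing notes, and not by any measured value. They are chr7:27130001-27250000 for HOXA, chr17:46600001-46810000 for HOXB, chr12:54330001-54450000 for HOXC and chr2:176950001-177060000 for HOXD, each taken with 1 Mb on both sides. In windows of 10 kb the clusters held 12 (HOXA), 21 (HOXB), 12 (HOXC) and 11 (HOXD) windows, 56 in all, and the flanks held 800. All 856 passed the filter on low counts, which kept 282404 of the 303641 windows of the 22 autosomes and chromosome X.

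HOX genes encode homeodomain transcription factors that set position along the body axis and in the limbs. Within a cluster the genes are switched on in their order along the chromosome, a property called colinearity, and where they are silent they are classic targets of the Polycomb repressors. Replication timing is the order in which parts of the genome are copied during S phase. Gene-rich, active DNA is mostly copied early and gene-poor, silent DNA late, and developmental genes are among those whose timing differs between cell types.

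The data came from HCT116, a colorectal carcinoma line, with 1 set of 3 libraries, and from RPE1, a retinal pigment epithelial line immortalised with telomerase, with 2 sets of 3 libraries. Both lines were grown in the same medium, and the labels name no drug or other treatment. Dividing cells took up a pulse of EdU, a thymidine analogue that marks newly made DNA, and were sorted into early, mid and late S phase, after which the marked DNA was pulled down and sequenced. The labels do not say that the RPE1 sets came from separate cultures, and in HCT116 they give replicate number 2 to the mid and late fractions and none to the early one.

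The 3 count columns of each table carry no fraction name. By position they are named library A, library B and library C here, and no letter stands here for early, mid or late S phase. Over 23687 windows of 120 kb, each HCT116 library correlated best with the RPE1 library at its own position, against RPE1 sets 1 and 2. Pearson r was 0.849 and 0.841 where both were A. It was 0.450 and 0.480 where both were B, and 0.767 and 0.769 where both were C. The comparisons between the lines below take columns at the same position as the same kind of library. HCT116 held 27519669 reads, against 35891538 in RPE1 set 1 and 55421713 in RPE1 set 2, and the median window of 10 kb had 89 reads in HCT116, 119 in RPE1 set 1 and 176 in RPE1 set 2.

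By coordinate, RefSeq (GRCh38.p14, used for names and order only) places HOXA13 last among 11 HOXA genes, and HOXB1 first and HOXB13 last among 10 HOXB genes. The other clusters run the other way, with HOXC13 and HOXD13 at their lower ends, and hold 9 genes each. Genes at the HOX13 side of a cluster act in the tail, the digits and the urogenital tract. The nearest other genes include EVX1 beside HOXA13 and EVX2 beside HOXD13, homeobox genes of the even-skipped family. CBX3, CBX1 and CBX5, which encode the heterochromatin protein 1 family, are near HOXA, HOXB and HOXC.

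The clusters also share small RNA genes, shown here because their likeness marks the clusters as copies of 1 ancestral cluster. Mature sequences are from RefSeq (GRCh38.p14), with the seed, bases 2 to 8, in capitals.
miR-196b-5p, HOXA: uAGGUAGUuuccuguuguuggg
miR-196a-5p, HOXB and HOXC: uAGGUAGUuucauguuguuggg
miR-10a-5p, HOXB: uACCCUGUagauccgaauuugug
miR-10a-3p, HOXB: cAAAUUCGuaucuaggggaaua
miR-10b-3p, HOXD: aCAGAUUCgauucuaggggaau
miR-615-3p, HOXC: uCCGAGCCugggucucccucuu
The miR-196 RNAs of HOXA, HOXB and HOXC share 1 seed, and miR-196a-5p and miR-196b-5p differ at 1 of 22 bases. The miR-196 family is known to repress HOX messages, HOXB8 among them. The small RNAs stand inside the clusters whose library shares are given below, and their levels were not measured.

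Promoters matched by symbol for 20 of the 39 genes, with 27 entries in all, of which those of HOXC4 and HOXC5 are the same interval. Each runs for 300 bases around the start of its gene, and CG, searched as these letters, reads the same on both strands. The HOX promoters held a median of 22 CG pairs, against 14 over all 35116 promoters of the table, and their median GC content was 58.0%, against 58.7%. That median mostly describes HOXA, with 16 entries from 9 genes, and HOXD, with 8 entries, at medians of 21.5 and 24.5 CG pairs. HOXC, with 2 entries, had a median of 15, and the 1 entry of HOXB had 11. CG counts differed widely among them, with 0 in the lowest and 44 in the highest. The promoter entries of HOXA4, HOXC4 and HOXD4 are shown. These group 4 genes, which pattern the neck region, are copies of 1 ancestral gene. They lie in the 3 clusters where HCT116 was 20 points or more from both RPE1 sets on the measure below. HOXB1, a hindbrain gene, stands for HOXB, where HCT116 lay between the RPE1 sets. CG pairs are in capitals, and the coordinates are GRCh38.p14 and cannot be set against the hg19 windows.
HOXA4: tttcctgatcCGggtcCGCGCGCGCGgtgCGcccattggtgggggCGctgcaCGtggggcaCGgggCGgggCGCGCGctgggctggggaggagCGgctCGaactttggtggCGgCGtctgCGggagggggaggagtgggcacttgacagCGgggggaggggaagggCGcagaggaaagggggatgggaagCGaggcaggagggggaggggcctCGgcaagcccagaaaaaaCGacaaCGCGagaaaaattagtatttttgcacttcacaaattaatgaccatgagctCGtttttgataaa
HOXC4: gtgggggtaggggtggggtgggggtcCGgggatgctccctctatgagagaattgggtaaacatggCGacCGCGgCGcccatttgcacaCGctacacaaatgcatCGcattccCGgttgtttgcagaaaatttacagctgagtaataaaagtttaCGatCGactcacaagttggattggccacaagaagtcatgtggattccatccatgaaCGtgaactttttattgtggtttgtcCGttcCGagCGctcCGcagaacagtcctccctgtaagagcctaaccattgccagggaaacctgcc
HOXD4: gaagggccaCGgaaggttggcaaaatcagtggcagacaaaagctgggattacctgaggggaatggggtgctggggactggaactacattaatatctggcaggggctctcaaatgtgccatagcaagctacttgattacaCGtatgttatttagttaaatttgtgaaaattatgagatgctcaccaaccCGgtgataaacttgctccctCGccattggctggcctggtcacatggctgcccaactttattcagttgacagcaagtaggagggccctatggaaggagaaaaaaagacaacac
HOXB1: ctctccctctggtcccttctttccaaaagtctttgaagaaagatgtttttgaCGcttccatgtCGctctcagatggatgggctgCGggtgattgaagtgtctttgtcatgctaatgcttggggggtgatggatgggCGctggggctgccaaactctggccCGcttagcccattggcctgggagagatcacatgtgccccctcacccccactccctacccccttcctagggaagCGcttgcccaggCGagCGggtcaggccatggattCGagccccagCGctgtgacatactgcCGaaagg
They lie at chr7:27130708-27131007 on the minus strand, chr12:54016638-54016937 on the plus strand, chr2:176151300-176151599 on the plus strand and chr17:48530962-48531261 on the minus strand. They hold 27, 15, 4 and 11 CG pairs in that order of genes. The entries of HOXA4 and HOXD4, at 27 and 4, are thus unlike in this measure. The HOXC4 entry is also that of HOXC5, so it may not be a counterpart of the other group 4 promoters. At 10 kb a window is far wider than a promoter, and no value below belongs to a single promoter.

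Columns were scaled to equal totals, and the 3 scaled counts of a region were turned into shares in percent. The share of library A minus that of library C, in percentage points, is the main measure. Intervals are 95% intervals of counting error only and leave out replicate error. The sample labels carry the word nodup, which points to removal of duplicate reads, though by what rule is unknown. Without molecular identifiers, any PCR copies left in the counts would not be independent molecules. A window is called when HCT116 lay at least 20 points above both RPE1 sets, or at least 20 points below both. With 1 HCT116 set against 2 RPE1 sets, the smallest p a permutation over sets can give is 0.33, so no test was made. Replicate error can be read only from the gap between RPE1 set 1 and RPE1 set 2.

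HOXA differed most between the lines. In HCT116 library A held 54.2% of the HOXA reads, library B 32.7% and library C 13.1%. In RPE1 library C was the largest, with 17.8% in A, 27.1% in B and 55.1% in C in set 1, and 16.9, 39.8 and 43.3% for A, B and C in set 2. These shares rest on 866 reads in HCT116, 1383 in RPE1 set 1 and 2029 in RPE1 set 2. HOXA genes are needed for limb, uterine and blood cell development, HOXA9, HOXA10, HOXA11 and HOXA13 being the best known.

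For HOXB, library A led in every set. HCT116 had 59.5% in A, 24.2% in B and 16.3% in C, while RPE1 set 1 had 51.5% in A, 45.9% in B and 2.65% in C. RPE1 set 2 had 51.3% in A, 35.3% in B and 13.4% in C. HOXB, whose HOXB1 acts in the hindbrain and HOXB13 in the prostate, was the best covered cluster, with 2751 reads in HCT116, 2087 in RPE1 set 1 and 4686 in RPE1 set 2. The RPE1 sets were themselves unlike in library C here.

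HOXC, which holds HOXC13 of hair and nail and the long non-coding RNA HOTAIR, was taken by library A in HCT116 and by library B in RPE1. HCT116 had 69.1% in A, 15.9% in B and 15.0% in C, from 822 reads. RPE1 set 1 had 38.7% in A, 56.1% in B and 5.18% in C, from 873 reads, and RPE1 set 2 had 39.01% in A, 47.7% in B and 13.3% in C, from 2126 reads. The lines differed in A and B, while C was low in all 3 sets.

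HOXD, known for the digits through HOXD13, showed an exchange between other libraries. Library A in HCT116, at 22.6%, lay between RPE1 set 1 at 23.2% and RPE1 set 2 at 17.8%. Library B held 60.9% in HCT116, against 38.8% in RPE1 set 1 and 45.4% in RPE1 set 2. Library C held 16.5% in HCT116, against 37.9% in RPE1 set 1 and 36.8% in RPE1 set 2. Here the lines differed in B and C, and only HCT116 had library B over the 95th percentile of all its windows of 120 kb, which was 50.9%, against 55.3% in RPE1 set 1 and 49.9% in RPE1 set 2. Reads over HOXD came to 1064 in HCT116, 1091 in RPE1 set 1 and 2057 in RPE1 set 2.

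**Figure D1:**
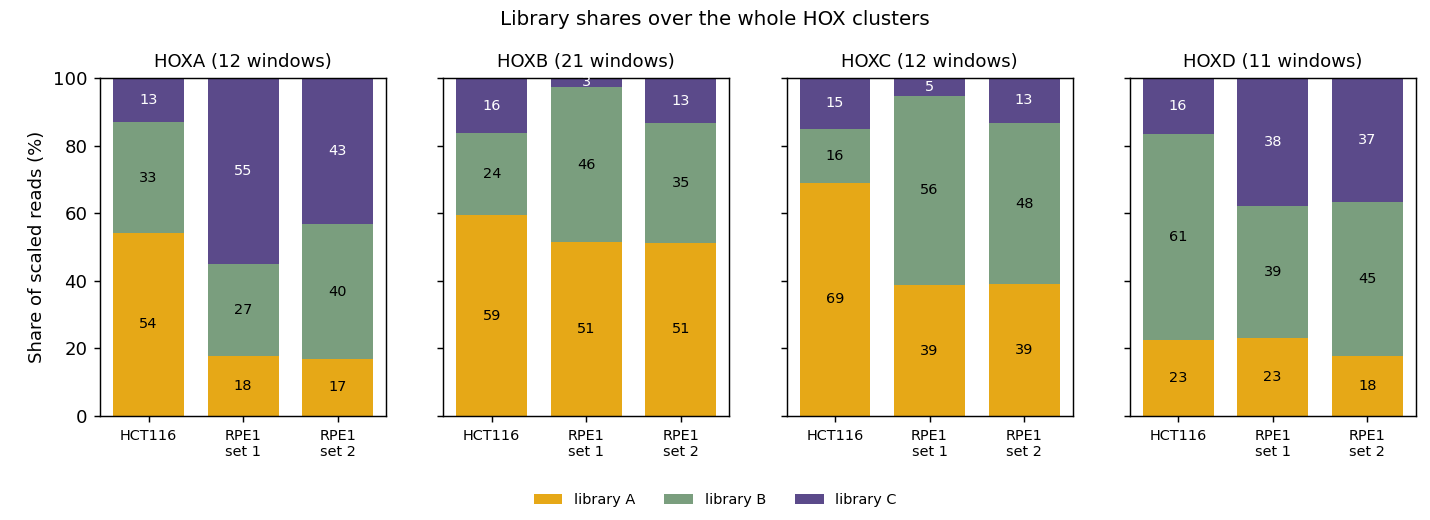
Shares of scaled reads in percent (vertical axis, stacked to 100) in libraries A, B and C over each whole cluster, with HCT116 left of RPE1 sets 1 and 2. Library A is the largest block of HOXA in HCT116 at 54%, and library C the largest there in RPE1, at 55% and 43%.

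Library A minus library C gives the size of these differences. HOXA stood at 41.0 points in HCT116 (interval 35.7 to 46.3), at -37.3 in RPE1 set 1 (-41.3 to -33.4) and at -26.4 in RPE1 set 2 (-29.4 to -23.4). The difference, HCT116 minus the RPE1 mean, was 72.9 points, where the RPE1 mean was -31.9 ± 7.73 (SD, n = 2) and the RPE1 sets lay 10.9 points apart. The lines did not overlap at HOXA, and the difference was far larger than the gap between the sets.

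HOXC stood at 54.0 points in HCT116 (48.5 to 59.6), at 33.5 in RPE1 set 1 (30.03 to 37.0) and at 25.7 in RPE1 set 2 (22.8 to 28.6), a difference of 24.4 points. HOXD stood at 6.17 points in HCT116 (1.74 to 10.6), at -14.7 in RPE1 set 1 (-18.8 to -10.6) and at -18.9 in RPE1 set 2 (-21.9 to -16.0), a difference of 22.998 points. Both differences passed 20 points against both sets, yet closely: HCT116 minus RPE1 set 1 was 20.5 points at HOXC (14.0 to 27.1) and 20.9 at HOXD (14.9 to 26.9), with intervals that reach below 20.

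HOXB stood at 43.2 points in HCT116 (40.04 to 46.3), at 48.8 in RPE1 set 1 (46.4 to 51.2) and at 37.9 in RPE1 set 2 (35.8 to 39.99). HCT116 lay between the RPE1 sets, and the difference from their mean, -0.17 points, was smaller than the 10.9 points between the sets. Of all 120 kb windows kept, 15.2% had HCT116 at least 20 points above both RPE1 sets, 7.81% had it at least 20 points below both, and in 1.47% the RPE1 sets were 20 points apart. HOXA, HOXC and HOXD were thus 3 of 4 clusters that met a criterion met upward by 15.2% of windows of like size.

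The spread of A minus C was not the same in the 3 sets, so ranks were also taken. Over windows of 120 kb its 95th percentile was 41.9 points in HCT116, 63.2 in RPE1 set 1 and 49.3 in RPE1 set 2. HOXA ranked at the 93.6th percentile in HCT116, the 29.6th in RPE1 set 1 and the 33.2nd in RPE1 set 2. HOXC was exceeded by 5 of 23687 windows in HCT116, by 7483 in RPE1 set 1 and by 6867 in RPE1 set 2. HOXB ranked at the 96.6th percentile in HCT116, the 79.6th in RPE1 set 1 and the 81.0th in RPE1 set 2. By rank, HOXB was thus higher in HCT116 than in both RPE1 sets, which the points do not show. The HOXB cluster is longer than the windows it is ranked among. HOXD ranked at the 48.2nd, 42.8th and 38.8th percentile in HCT116, RPE1 set 1 and RPE1 set 2, a mean difference of 7.43 percentiles, so that its difference no longer passes the threshold when ranks replace points.

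The form of the HOXC difference also bears on its size. Library C at HOXC was near the low end of all windows of 120 kb in each set: the 5th percentile of C was 14.5% in HCT116, 3.20% in RPE1 set 1 and 14.6% in RPE1 set 2. On a scale of log2 of A over C, with a pseudocount of 1 scaled read, HCT116 minus the RPE1 mean was 0.01 at HOXC, and none of its 12 windows was called. What set HCT116 apart at HOXC was A against B. On the same log2 scale HCT116 minus the RPE1 mean was -1.07 at HOXB, opposite in direction to its ranks. No HOXB window was called on that scale.

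The order of the clusters differed between the lines. In HCT116 it was HOXC, HOXB, HOXA and HOXD, high to low, and the intervals of HOXB and HOXA overlapped. In both RPE1 sets it was HOXB, HOXC, HOXD and HOXA. In RPE1 set 2 the lowest of these, HOXD at -18.9 and HOXA at -26.4 points, were closer together than the RPE1 sets were at HOXA.

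Window by window, HCT116 was called above both RPE1 sets in 24 of the 56 cluster windows, or 42.9%, and below both in none. Over all kept windows of 10 kb, 16.3% were called above and 11% below, and in 14.5% the RPE1 sets were at least 20 points apart. The RPE1 sets were that far apart in 6 of the 56 cluster windows. The calls above were in HOXA (12 of 12), HOXC (6 of 12) and HOXD (6 of 11), with 0 of 21 in HOXB. The median difference from the RPE1 mean was 71.3 points over HOXA windows, -0.84 over HOXB, 26.1 over HOXC and 26.2 over HOXD, beside 1.13 over all kept windows.

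When a window was called at 20 percentiles within each set in place of 20 points, 24 cluster windows were again called above and none below, against 9.59 and 9.81% of all kept windows. They were 12 in HOXA, 1 in HOXB, 9 in HOXC and 2 in HOXD, so HOXD was called in 2 of 11 windows by this rule and in 6 of 11 by points. With every column thinned to the smallest column, 3 of 11 HOXD windows were called.

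**Figure D2:**
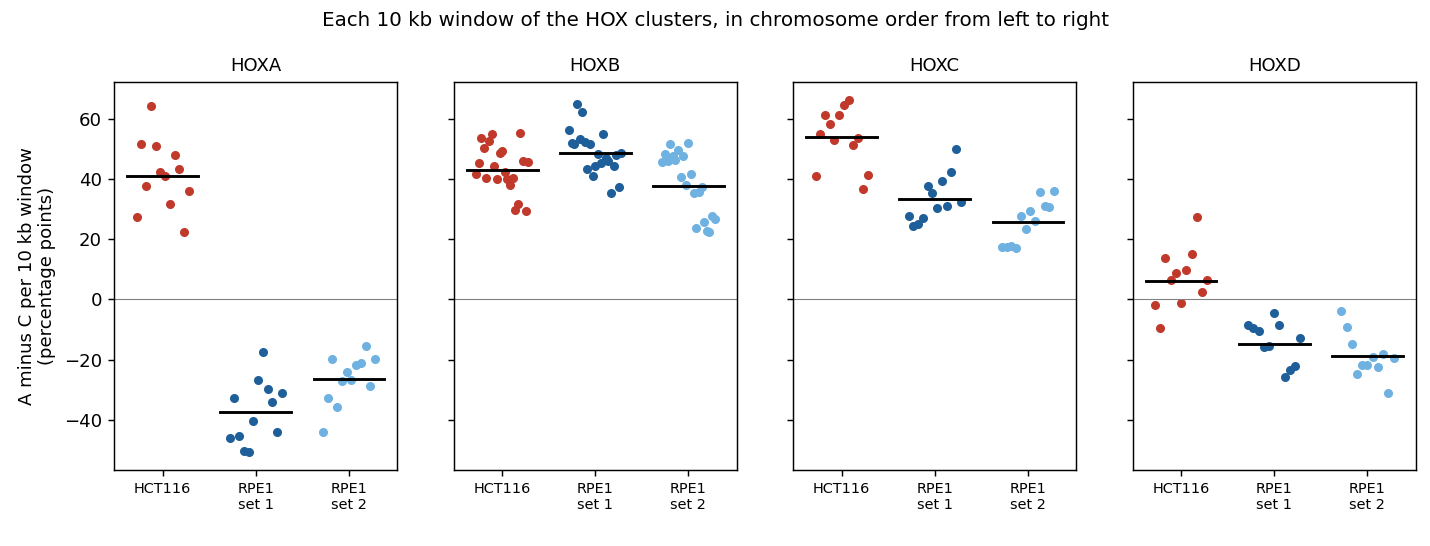
Library A minus library C in percentage points (vertical axis) for each 10 kb window of the 4 clusters, in chromosome order within each set, HCT116 left of RPE1 sets 1 and 2. Points are windows and bars the whole-cluster values. HOXA windows of HCT116 lie at 22.4 points or more and those of RPE1 at -15.4 or less.

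In HOXA, the highest of the HCT116 windows was chr7:27160001-27170000 at 64.4 points and the lowest chr7:27230001-27240000 at 22.4 points. In RPE1 set 1 the highest was chr7:27200001-27210000 at -17.4 points and the lowest chr7:27170001-27180000 at -50.7 points. In RPE1 set 2 the highest was chr7:27220001-27230000 at -15.4 points. The lowest HCT116 window was above the highest window of either RPE1 set.

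In HOXB the HCT116 windows lay between 29.5 points, at chr17:46790001-46800000, and 55.5 points, at chr17:46770001-46780000. RPE1 set 1 lay between 35.5 points, at chr17:46760001-46770000, and 65.1 points, at chr17:46630001-46640000. RPE1 set 2 lay between 22.4 points, at chr17:46780001-46790000, and 52.1 points, at chr17:46700001-46710000. All 3 ranges overlapped. The HOXB1 side stood at 46.9 points in HCT116, 53.0 in RPE1 set 1 and 46.2 in RPE1 set 2. The HOXB13 side stood at 40.3, 45.3 and 31.5 points, so each set was lower toward HOXB13, most in RPE1 set 2. The HCT116 intervals for these parts, ± 4.62 and ± 4.27 points, overlapped.

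In HOXC the HCT116 windows lay between 36.6 points, at chr12:54430001-54440000, and 66.5 points, at chr12:54400001-54410000. RPE1 set 1 lay between 24.6 points, at chr12:54340001-54350000, and 50.0 points, at chr12:54430001-54440000. RPE1 set 2 lay between 17.0 points, at chr12:54360001-54370000, and 36.0 points, at chr12:54440001-54450000. The lowest HCT116 window was thus the highest window of RPE1 set 1. The HOXC13 side stood at 54.6 points in HCT116, 28.9 in RPE1 set 1 and 19.997 in RPE1 set 2, and the HOXC4 side at 53.5, 37.3 and 31.5 points. HCT116 was level across the cluster, while both RPE1 sets were lower on the HOXC13 side. In RPE1 set 1 the intervals of these parts, ± 5.06 and ± 4.75 points, overlapped.

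In HOXD the HCT116 windows lay between -9.65 points, at chr2:176960001-176970000, and 27.4 points, at chr2:177030001-177040000. RPE1 set 1 lay between -25.7 points, at chr2:177020001-177030000, and -4.62 points, at chr2:177000001-177010000. RPE1 set 2 lay between -31.1 points, at chr2:177040001-177050000, and -3.74 points, at chr2:176950001-176960000. The ranges overlapped, with the lowest HCT116 window near the HOXD13 end. The HOXD13 side stood at 3.28 points in HCT116, -11.9 in RPE1 set 1 and -15.1 in RPE1 set 2, and the HOXD1 side at 8.998, -16.8 and -22.3 points. HCT116 was farther from both RPE1 sets on the HOXD1 side, although its intervals for these parts, ± 6.40 and ± 6.11 points, overlapped.

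The library with the most scaled reads in each window was counted as well, which needs no difference of shares. In HOXA, library A led 11 and library B 1 of the HCT116 windows, whereas C led all 12 in RPE1 set 1, and C led 7 and B 5 in RPE1 set 2. In HOXC, library A led all 12 in HCT116, whereas B led 9 in RPE1 set 1 and 8 in RPE1 set 2. In HOXD, library B led all 11 in HCT116 and 10 in RPE1 set 2, whereas in RPE1 set 1 B led 6 and C 5. In HOXB, library A led all 21 in HCT116, 15 in RPE1 set 1 and 18 in RPE1 set 2. At HOXD this measure put RPE1 set 2 nearer to HCT116 than RPE1 set 1, whereas A minus C put RPE1 set 1 nearer, at 20.9 points against 25.1.

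Around the clusters the lines also differed. Of the 800 flank windows, 209 (26.1%) were called above both RPE1 sets and 52 (6.5%) below, beside 16.3 and 11% of all kept windows. The downward share rested on RPE1 set 2: without that set 201 flank windows, or 25.1%, were called below, beside 23.1% of all kept windows. The upward calls were not spread evenly: 88 of the 100 windows below HOXA in coordinate were called, on the side of SKAP2, SNX10 and CBX3, and 19 of the 100 above it. HOXB had none of 200 called above and 13 below.

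HOXA was inside 1 long stretch of called windows. At chr7:26310001-27300000, 99 adjacent windows were called above, among them the 12 of the cluster. Over these 990 kb library A minus C was 31.7 points in HCT116, -37.3 in RPE1 set 1 and -31.8 in RPE1 set 2. The HOXA difference was thus not confined to the HOX genes. In flank steps of 100 kb, HCT116 stayed between 22.6 and 41.9 points over the whole region, whereas RPE1 set 1 ran between -52.4 and 59.5 points and RPE1 set 2 between -46.4 and 48.4 points. HCT116 was nearly level, and both RPE1 sets changed sign on both sides of the cluster. The lowest flank step by coordinate stood at 16.6 points in RPE1 set 1 and 5.44 in RPE1 set 2, and the third step at -22.6 and -22.1 points. Beyond the stretch, 2 short runs of 30 kb were called above, at chr7:27340001-27370000 and chr7:27440001-27470000.

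In HOXC the 6 called windows formed a pair of short runs inside the cluster, chr12:54340001-54370000, with 58.3 points in HCT116, 25.5 in RPE1 set 1 and 17.4 in RPE1 set 2, and chr12:54380001-54410000, with 64.3, 34.3 and 26.3 points. The window between them was not called. The nearest runs called above in the flanks lay in the upper one, chr12:55120001-55200000 and chr12:55210001-55450000, the second of 240 kb with 19.6 points in HCT116, -30.8 in RPE1 set 1 and -26.9 in RPE1 set 2. In the lower flank 2 runs of 30 kb were called below, chr12:53670001-53700000 and chr12:53720001-53750000. The difference ran on past the HOXC13 end of the cluster. In the 100 kb beside that end, library A minus C was 44.0 points in HCT116, 24.7 in RPE1 set 1 and 10.2 in RPE1 set 2, although the windows called there did not form runs of 3 or more. In the 100 kb beside the other end it was 27.2 points in HCT116, between 35.9 in RPE1 set 1 and 23.8 in RPE1 set 2.

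HOXD had 10 runs called above and 2 called below. Inside the cluster the runs were chr2:176970001-177000000, with 9.69 points in HCT116, -13.8 in RPE1 set 1 and -20.4 in RPE1 set 2, and chr2:177020001-177050000, with 14.3, -23.7 and -24.4 points. The longest in the flanks was chr2:177540001-177660000, 120 kb with 14.0 points in HCT116, -39.0 in RPE1 set 1 and -26.8 in RPE1 set 2. The other runs above it were chr2:177670001-177710000, chr2:177750001-177780000 and chr2:177790001-177870000. Below the cluster in coordinate, chr2:176120001-176190000, chr2:176200001-176260000, chr2:176270001-176320000 and chr2:176350001-176410000 were called above. The opposite call came nearer to the cluster, on the side of EVX2 and LNPK: chr2:176640001-176750000 had -17.7 points in HCT116, 22.6 in RPE1 set 1 and 16.9 in RPE1 set 2, and chr2:176780001-176810000 was called below as well. Along the lower HOXD flank the difference between the lines thus turned its sign, and at the cluster it was positive again.

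For HOXA, HOXC and HOXD the flank window with the largest positive difference from the nearer RPE1 set was inside a called run. For HOXA it was chr7:26620001-26630000, at 50.2 points in HCT116, -69.8 in RPE1 set 1 and -56.2 in RPE1 set 2. For HOXC it was chr12:55410001-55420000, at 28.7 points in HCT116, -44.6 in RPE1 set 1 and -39.6 in RPE1 set 2. For HOXD it was chr2:177760001-177770000, at 48.5 points in HCT116, -18.9 in RPE1 set 1 and -18.7 in RPE1 set 2. For HOXB the largest positive one, chr17:46410001-46420000, was not called, with 49.2 points in HCT116, 31.0 in RPE1 set 1 and 31.5 in RPE1 set 2.

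The largest differences downward, again from the nearer RPE1 set, were called in all 4 flanks. They were chr7:27770001-27780000 for HOXA (21.7 points in HCT116, 62.8 in RPE1 set 1 and 50.8 in RPE1 set 2) and chr17:46030001-46040000 for HOXB (34.2, 71.2 and 71.4 points). For HOXC the window was chr12:53440001-53450000 (18.1, 84.5 and 60.9 points), and for HOXD chr2:176650001-176660000 (-34.5, 13.4 and 13.4 points). Those of HOXA, HOXB and HOXC were windows high in library A in RPE1, and HCT116 was positive there too.

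**Figure D3:**
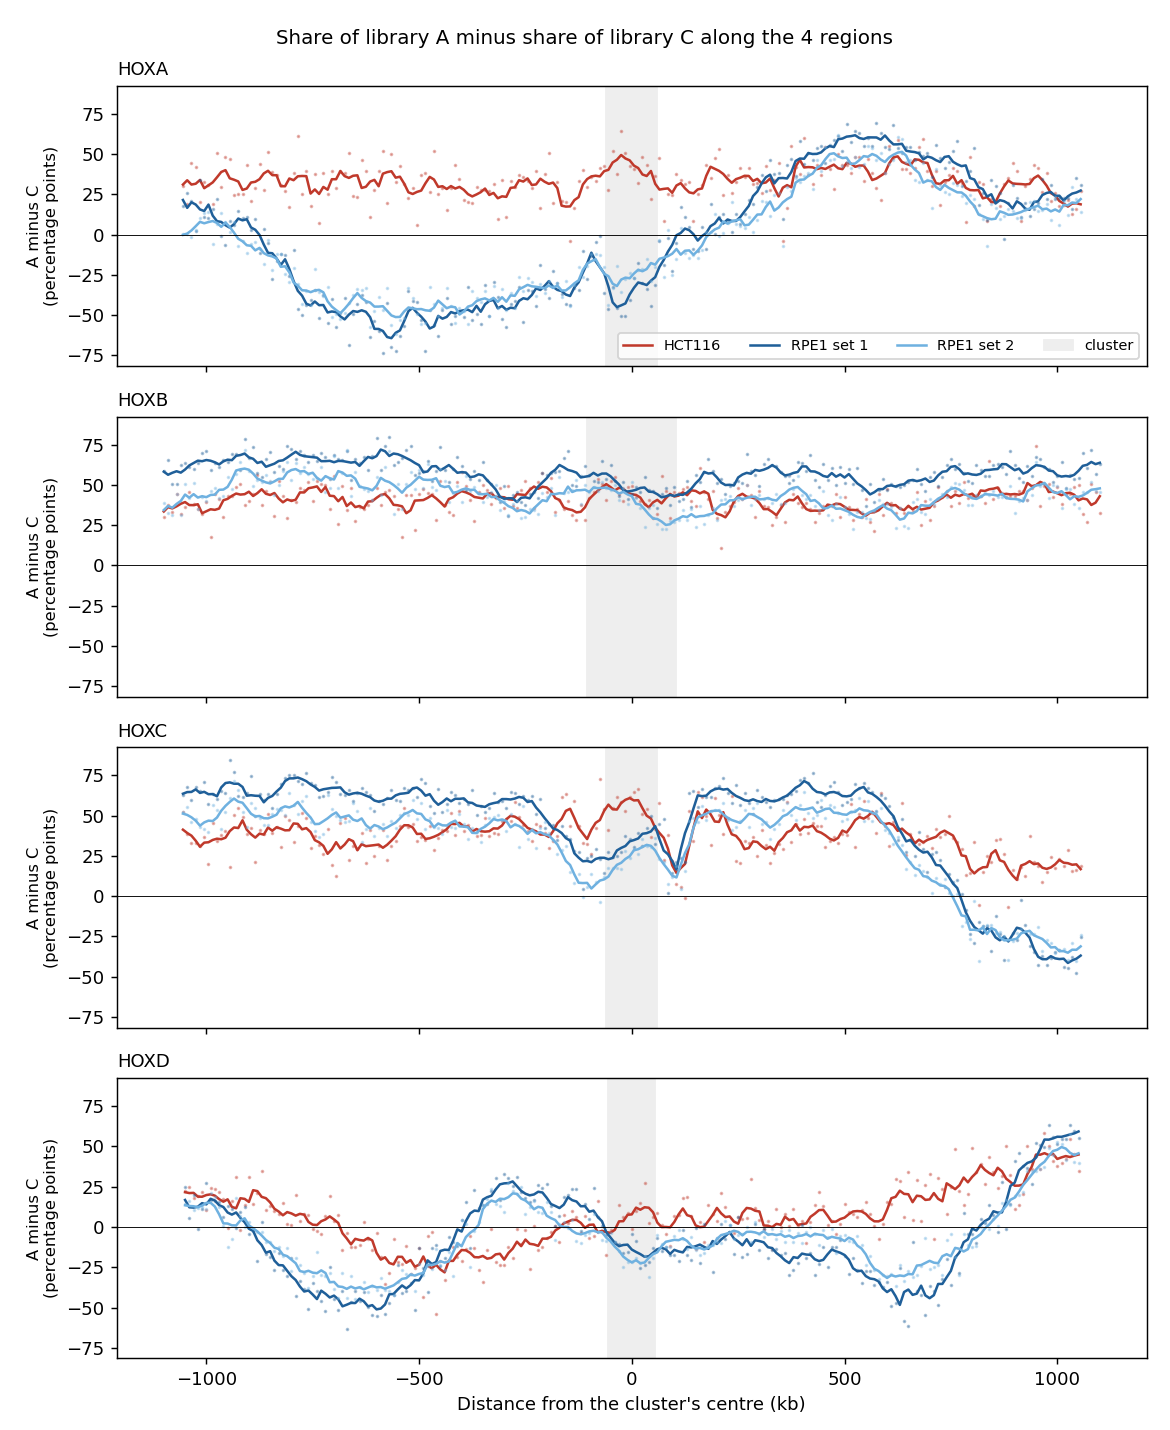
Library A minus library C in percentage points (vertical axis) against distance in kb from the cluster's centre, points being 10 kb windows, lines running means, red HCT116, dark and light blue RPE1 sets 1 and 2, and grey the cluster. The HCT116 running mean stays above 0 through the HOXA region, while both RPE1 sets lie below 0 over most of its left side.

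How alike the profiles were is given as Pearson r over windows, as a description, since adjacent windows are not independent and each set's windows share its libraries. Over the 212 windows of the HOXA region r was 0.149 between HCT116 and RPE1 set 1 and 0.236 between HCT116 and RPE1 set 2, beside 0.958 between the RPE1 sets. For HOXC it was 0.449 and 0.472, beside 0.961, and for HOXD 0.297 and 0.409, beside 0.894. In the HOXB region it was 0.040 and 0.233, beside 0.596 between the RPE1 sets, over a profile that ran only between 33.7 and 47.6 points in HCT116 steps of 100 kb. At HOXA the HCT116 profile was narrow too, between 22.6 and 41.9 points in such steps. Counting error weighs more on r over a narrow profile. The RPE1 sets resembled each other more than either resembled HCT116 in all 4 regions.

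Library B was followed along the same regions. Next to HOXC, in the 100 kb on the HOXC13 side, library B held 23.2% in HCT116, 61.5% in RPE1 set 1 and 49.6% in RPE1 set 2. In the 100 kb on the other side, toward SMUG1 and CBX5, it held 27.2% in HCT116, 33.4% in RPE1 set 1 and 31.2% in RPE1 set 2. In RPE1 the high share of B thus covered HOXC and the DNA beside HOXC13 and ended on the HOXC4 side. In HCT116 the share of B within HOXC, 15.9%, was below all 20 of its flank steps, which ran between 23.1 and 53.9%.

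At HOXD the share of B in HCT116, 60.9%, was above all 20 of its flank steps, whose highest was 52.9%. In RPE1, B at HOXD was inside the range of the flank steps, which reached 60.0% in set 1 and 51.9% in set 2. HOXC and HOXD were thus the lowest and the highest steps of their regions in library B, in HCT116 alone.

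**Figure D4:**
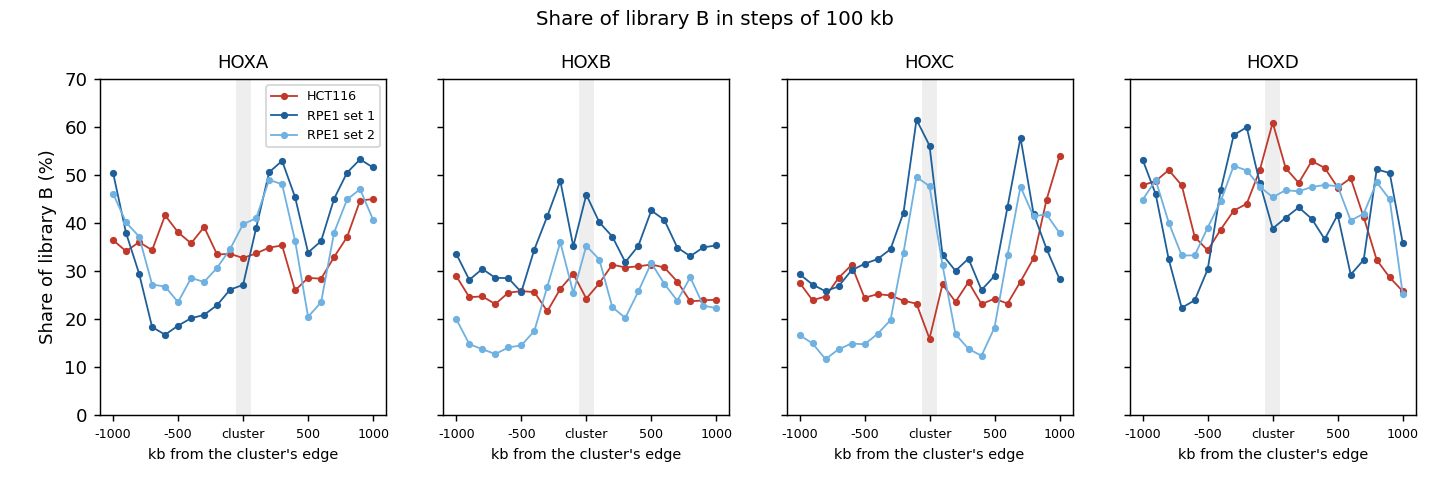
Share of library B in percent (vertical axis) in steps of 100 kb against distance in kb from the cluster's edge, the grey step being the whole cluster, red HCT116, dark and light blue RPE1 sets 1 and 2. In HCT116 the HOXC step is the lowest of its region at 15.9% and the HOXD step the highest at 60.9%.

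Each cluster was set against its own flanks of 1 Mb within a set. HOXA stood above its flanks by 9.02 points in HCT116 (± 5.44, 95%), and differed by -33.4 points in RPE1 set 1 and -22.9 in RPE1 set 2. HOXC stood 18.6 points above its flanks in HCT116 (± 5.72, 95%), and differed by -13.4 points in RPE1 set 1 and -7.68 in RPE1 set 2. HOXB differed by 3.35 points in HCT116 (± 3.29, 95%), -9.39 in RPE1 set 1 and -4.92 in RPE1 set 2. HOXD differed by 0.30 points in HCT116, well inside its 95% interval of ± 4.61, and by -5.26 points in RPE1 set 1 and -12.8 in RPE1 set 2. Against both flanks pooled, all 4 clusters were thus lower in both RPE1 sets, and 3 of 4 were higher in HCT116 by more than counting error. The flanks of a cluster were not alike, and the sides taken alone gave 2 exceptions in RPE1. HOXC, at 33.5 points in RPE1 set 1 and 25.7 in RPE1 set 2, was above its upper flank, at 31.3 and 21.6 points. HOXA in RPE1 set 2, at -26.4 points, was level with its lower flank, at -26.5 points, while its upper flank stood at 20.4 points. In HCT116, HOXD at 6.17 points lay between its lower flank, at -3.48 points, and its upper flank, at 16.2 points. The counting intervals of these HOXD values did not overlap.

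For HOXC the sign in RPE1 depended on the flank. Against the adjacent 100 kb on both sides, HOXC stood 19.4 points higher in HCT116, 2.69 higher in RPE1 set 1 and 8.27 higher in RPE1 set 2. That adjacent DNA stood at 34.6 points in HCT116, 30.8 in RPE1 set 1 and 17.4 in RPE1 set 2. HOXA kept its signs against the adjacent 100 kb, with 13.02 points in HCT116, -23.9 in RPE1 set 1 and -10.2 in RPE1 set 2. At HOXB the values were 2.92 in HCT116, -6.38 in RPE1 set 1 and 0.70 in RPE1 set 2, and at HOXD 3.77, -13.5 and -12.8.

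**Figure D5:**
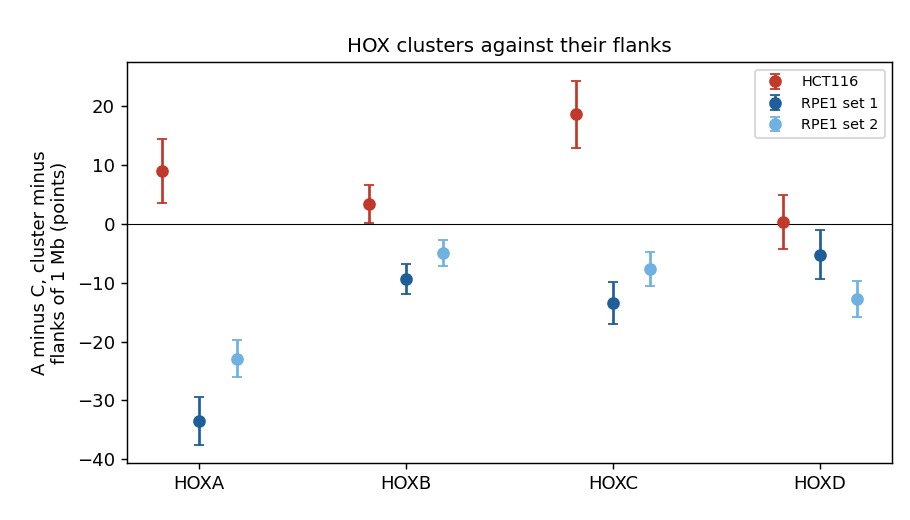
Library A minus library C of each cluster minus that of its 1 Mb flanks, in points (vertical axis), with 95% intervals of counting error, HCT116 in red left of RPE1 sets 1 and 2 in blue. HCT116 lies at 9.02, 3.35, 18.6 and 0.30 points for HOXA, HOXB, HOXC and HOXD, and every RPE1 value lies below 0.

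Read depth over the clusters, all 3 libraries summed, was compared because the number of copies of a region changes its counts, while a share within a set is less exposed to it. HOXB had 1.47 times the median window in HCT116, against 0.965 in RPE1 set 1 and 1.18 in RPE1 set 2. HCT116 over RPE1 was 1.39 ± 0.193 for HOXB (SD, n = 2) and 1.28 ± 0.0493 for its flanks, so the excess covered the whole region. Both ratios share the 1 HCT116 set, so the SDs of these ratios hold only the spread of the RPE1 sets. For the other clusters HCT116 over RPE1 was 0.813 ± 0.0635 at HOXA, 0.926 ± 0.163 at HOXC and 0.972 ± 0.176 at HOXD. HOXA was below 1 against both RPE1 sets, at 0.858 and 0.768, and HOXC and HOXD were above 1 against RPE1 set 1 and below it against RPE1 set 2. HOXC had the fewest reads for its flanks, 0.742 times their level in HCT116, 0.652 in RPE1 set 1 and 0.814 in RPE1 set 2. The part of depth in the shares was not tested.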

How the data were processed

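Nascent DNA from 9 libraries was sequenced, and the authors deposited raw read counts per bin of 1 kb, with 3 columns for each of 3 sets. Per the submitters' processing notes, the authors used Bowtie2, SAMtools 1.2, bedtools 2.25 and hg19. Mapping settings, the treatment of multi-mapping reads and the counting rule are not given in the sources used here, and a read over 2 bins may count in both. Any sequence shared between clusters could therefore shift counts among them, which was not tested.

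Bins were summed to windows of 10 kb, kept with at least 30 reads in each set and 5 of 10 bins holding a read. Columns were scaled to their table's mean column total over kept windows. Shares carry 95% Wilson intervals on the effective count, and differences carry Poisson intervals by the delta method. Windows named in the text are each set's highest and lowest per cluster, called runs of at least 3 windows, and the flank window of largest difference each way. Alternatives changed the scaling, depth, window, flank, threshold, filter and measure, and left out RPE1 sets. The scripts, in Python 3.11.15 with numpy 2.4.6 and pandas 2.3.3, were tested on simulated data. The cluster bounds came from position alone, yet the windows, clusters and measures reported were chosen with earlier results of these data known. No RefSeq coordinate was set against hg19, so single genes have no values. Some of the HOXA windows and parts so chosen are not reported here.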

Additional observations from a re-analysis of the deposited data

Results flagged for a closer look

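The difference between a cluster and its 1 Mb flanks had opposite signs in the lines at all 4 clusters, on library A minus library C. In HCT116 it was 9.02 points at HOXA, 3.35 at HOXB, 18.6 at HOXC and 0.298 at HOXD, while both RPE1 sets were below 0 at each. The difference between the lines was not tested, since 1 set stands against 2. At HOXD the HCT116 value was inside its counting interval, so its sign is not settled. There the cluster, at 6.17 points, lay between its lower flank at -3.48 and its upper flank at 16.2 points, so the sign depended on the side. At HOXC the RPE1 sign turned with narrower flanks, and both RPE1 sets were above the upper flank taken alone. At HOXB the sign in RPE1 set 2 turned as well against the adjacent 100 kb, at 0.70 points. HOXA in RPE1 set 2 was level with its lower flank taken alone.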

How the results depend on the processing

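Of 180 alternative values for 24 results, 166 counted as kept. A difference between the lines was kept on its side of the threshold, and other points when they moved by no more than the spread. Shares of windows called were kept within a fixed ratio of the main value. Thus 32.1% of cluster windows called above, at 30 points, was kept beside 42.9%. Part of the count was fixed in advance. With 2 RPE1 sets, dropping either moves their mean by less than their SD, and a call against both cannot be lost. Those values do not bear on stability. HOXA kept its call under all alternatives run. The HOXC difference missed the criterion without bins of extreme count (24.0 points, below 20 against 1 set) and as log2 of A over C (0.0136). The HOXD difference missed it with thinned columns (22.2 points) and as percentiles (7.43). The share of flank windows called below, 6.5%, was 1.88% in 50 kb windows, 19.9% at 10 points, 2.25% at 30 points and 4% by percentiles, and with 1 RPE1 set left out it ran between 6.5 and 25.1%, the higher value without set 2. With flanks of 500 kb, cluster minus flanks was -19.1 points for HOXC in RPE1 and 10.1 for HOXD in HCT116. With flanks of 100 kb it was -17.0 for HOXA, -2.84 for HOXB and 5.48 for HOXC in RPE1, the last with its sign turned. The HOXB difference was 5.29 points without RPE1 set 1 and -5.62 without RPE1 set 2. The cause was not tested. Percentiles and flanks of 100 kb were chosen after seeing the data. Counting error at 822 to 1064 HCT116 reads in HOXA, HOXC and HOXD limits values near the criterion. No paired analysis was made, since 1 HCT116 set stands against 2 RPE1 sets and the labels state no pairing between them. No result came from a test.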
